A study of Homo sapiens with 6 samples.

Results

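The genes described here are 10 early-response genes that were listed by symbol: the AP-1 subunits FOS, FOSL1, FOSL2, JUN, JUNB and JUND, the related factor ATF3, the transcription factors EGR1 and MYC, and the phosphatase DUSP1. All 10 were found among the 62438 genes of the deposited table, and all 10 passed the filter on low counts that left 17320 genes for testing. RNA-seq was performed on cells labelled MDA-MB-453, an established line of human breast cancer, after knockdown of N6AMT1, a methyltransferase that the study examined as a source of N6-methyladenine in DNA. In 3 libraries the cells had received 10 nM of siRNA against N6AMT1 (si-N6AMT1), and in 3 they had received 10 nM of scrambled siRNA (si-CN), in each case for 48 h. Every cell had thus been exposed to an siRNA and to the transfection reagent, no untransfected cells were compared here, and the sources used here give neither the sequence of the siRNA nor how many siRNAs were used. The study's methods speak of triplicate cells of a single line, and neither they nor the labels say whether these were separate cultures. The p-values thus measure the spread between these libraries, which may be technical.

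AP-1 is a dimer of basic leucine zipper proteins in which a FOS family protein pairs with a JUN family protein, or JUN proteins pair with each other, and it binds the sequence TGACTCA. Genes such as FOS, EGR1 and MYC are called immediate early genes because growth factors and stress switch them on within minutes, through MAP kinases and factors already present in the cell, without new protein synthesis. DUSP1 is induced in the same way and its product dephosphorylates MAP kinases, which closes a feedback loop. The labels describe no acute stimulus, so the levels measured here are those of transfected cultures at 48 h.

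Promoters are shown for EGR1, DUSP1, FOS and FOSL2, because these genes show both called and uncalled members and their windows hold elements known from early-response promoters. The sequences are those of RefSeq on GRCh38.p14, from 250 bases before to 50 bases after the start, on the strand of the gene. An entry was matched for 8 of the 10 genes, and those of FOSL1 and MYC were not matched. Capitals mark the CArG box bound by serum response factor, the cyclic AMP response element (CRE) TGACGTCA, the AP-1 site TGACTCA or TGAGTCA, the E-box CACGTG bound by MYC and MAX, and the TATA box TATAAA on the strand of the gene. The EGR1 promoter lies at chr5:138465229-138465528 on the plus strand, the DUSP1 promoter at chr5:172771146-172771445 on the minus strand, the FOS promoter at chr14:75278578-75278877 on the plus strand and the FOSL2 promoter at chr2:28392608-28392907 on the plus strand.
EGR1: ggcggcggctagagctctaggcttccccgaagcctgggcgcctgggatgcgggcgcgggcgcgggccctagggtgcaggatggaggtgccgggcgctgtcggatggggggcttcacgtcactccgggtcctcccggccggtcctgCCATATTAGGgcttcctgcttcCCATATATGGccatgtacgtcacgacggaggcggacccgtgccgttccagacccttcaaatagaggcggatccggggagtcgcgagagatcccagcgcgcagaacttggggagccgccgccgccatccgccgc
DUSP1: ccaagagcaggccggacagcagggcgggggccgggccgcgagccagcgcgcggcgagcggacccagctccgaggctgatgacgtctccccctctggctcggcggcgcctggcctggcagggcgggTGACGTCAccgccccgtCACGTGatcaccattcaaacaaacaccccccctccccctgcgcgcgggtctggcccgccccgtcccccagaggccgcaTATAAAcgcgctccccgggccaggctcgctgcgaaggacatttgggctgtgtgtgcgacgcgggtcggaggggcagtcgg
FOS: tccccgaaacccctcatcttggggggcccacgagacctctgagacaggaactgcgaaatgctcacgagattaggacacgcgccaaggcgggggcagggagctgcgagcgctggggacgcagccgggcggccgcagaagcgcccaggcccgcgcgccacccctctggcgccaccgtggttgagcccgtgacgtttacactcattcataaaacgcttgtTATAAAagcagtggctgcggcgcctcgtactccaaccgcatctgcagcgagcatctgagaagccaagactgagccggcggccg
FOSL2: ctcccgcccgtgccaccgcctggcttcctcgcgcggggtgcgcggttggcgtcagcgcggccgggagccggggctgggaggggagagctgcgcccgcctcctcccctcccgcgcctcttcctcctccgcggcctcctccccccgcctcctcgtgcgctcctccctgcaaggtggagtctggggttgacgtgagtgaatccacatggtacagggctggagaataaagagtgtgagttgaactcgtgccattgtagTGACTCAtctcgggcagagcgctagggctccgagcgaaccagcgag
EGR1 held a pair of CArG boxes, at positions -105 to -96 and -83 to -74 relative to its start, whereas 1.29% of 35116 promoters held any. DUSP1 held a CRE at -125 to -118 and an E-box at -108 to -103, which were found in 1.85% and 7.26% of promoters, and a TATA box at -30 to -25. FOS held a TATA box at -33 to -28. Elements further than 250 bases before a start lie outside these windows and were not searched, for FOS or for any other gene. Within the windows only exact matches to each motif were marked, so variant forms of these elements may be present unmarked. FOSL2 held an AP-1 site from 5 to 11 bases after its start, a sequence present in 4.95% of promoters. Outside the promoters shown, JUND held a CRE at -200 to -193 and JUNB a TATA box at -31 to -26. ATF3, for 1 of its 2 listed starts, held the letters TATAAA at -230 to -225, much further from the start than in the other genes. TATAAA was found in 7.33% of promoters. GC boxes (GGGCGG or CCGCCC), which 44.95% of promoters hold and which are not in capitals, were found in JUN, JUND, ATF3, FOS, FOSL2 and DUSP1. These matches describe the letters of the windows and no binding was measured.

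The targeted gene was lower in the knockdown. N6AMT1 (ENSG00000156239, chr21:30244513-30257693, minus strand, GRCh37) had 60 to 72 counts per library in si-N6AMT1 and 135 to 141 in si-CN, with a log2 fold change of -1.10 and a standard error (SE) of 0.119 (FDR = 3.65e-07 by edgeR). Here and throughout, FDR is the Benjamini-Hochberg adjusted p of edgeR's quasi-likelihood test over all 17320 genes, with a threshold of 0.05, and expression is given in CPM, the counts of a gene relative to the library total, scaled by TMM. Totals ran from 19739247 to 21289740 counts per library. The cell line label was checked against markers. PIP, an apocrine marker expected in MDA-MB-453, had 0 counts in all libraries, and SPDEF, a luminal factor, had 1 to 6. KRT8 was present at 599.9 CPM and KRT18 at 461 CPM in si-CN, but so were the basal markers KRT5 at 768 CPM, KRT14 at 111 CPM and TP63 at 207 CPM, together with VIM at 632 CPM. EPCAM had 316 CPM, XBP1 79.1 CPM, ERBB2 53.7 CPM, FOXA1 8.42 CPM, CDH1 4.98 CPM and GATA3 2.67 CPM, and of the other markers COL1A1 had 45.8 CPM, ACTA2 18.6 CPM, ZEB1 17.9 CPM and COL3A1 3.62 CPM. PIP and SPDEF were thus absent or nearly so, and the cells are called here by their label alone.

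Expression of 7 of the 10 genes was higher in si-N6AMT1 cells, and that of 0 was lower. FOS and DUSP1 were 1.30-fold higher, MYC 1.24-fold, EGR1 1.21-fold, FOSL1 1.14-fold, JUND 1.13-fold and ATF3 1.11-fold. JUN, JUNB and FOSL2 were not called, at 1.04-fold, 1.04-fold and 1.01-fold. The share called higher was 70.0%, beside 9.78% of all genes tested, and the share called lower was 0 beside 11.5%. None of the 10 was lower at an unadjusted p under 0.05 either (0 genes), nor by DESeq2 or limma-voom (0 genes each). The median log2 fold change was 0.18 over the 10 genes and 0.0039 over all genes tested. In the same 7 genes every si-N6AMT1 library lay above every si-CN library, which was so in 16.8% of all genes tested. The 10 genes were chosen with earlier results of these data known, so these shares are no independent evidence. In bulk RNA, more RNA per cell and more cells that express a gene cannot be told apart.

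**Figure D1:**
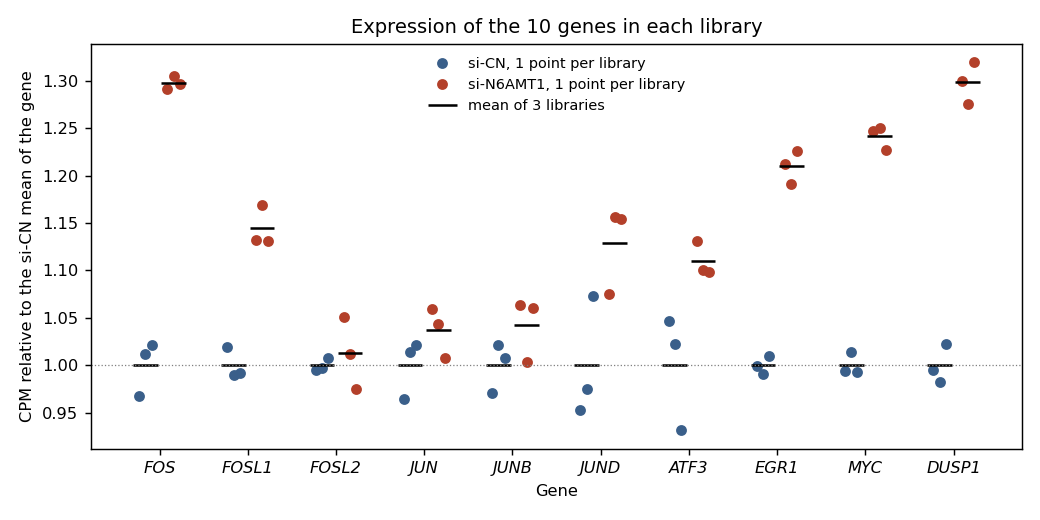
Expression of each gene in each of the 6 libraries, as CPM divided by the mean of the 3 si-CN libraries of that gene (no unit), with black bars for the mean of each group. The si-N6AMT1 points of FOS, EGR1, MYC and DUSP1 lie far above the si-CN points, those of JUND lie just above, and those of FOSL2, JUN and JUNB overlap with si-CN.

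FOS (ENSG00000170345, chr14:75745529-75748933, plus strand, 4 exons) encodes the founding member of its family, whose protein cannot form dimers with itself and needs a JUN partner. Its CPM was 223, 225 and 223 in si-N6AMT1 replicates 1 to 3 and 167, 174 and 176 in si-CN replicates 1 to 3. The si-N6AMT1 libraries were closely grouped and all lay well above si-CN. Group means were 224 ± 1.20 CPM and 172 ± 4.99 CPM (SD, n = 3 each), a log2 fold change of 0.38 (SE 0.0251, FDR = 1.79e-10 by edgeR). It ranked 24 by FDR among the 1694 genes called higher, the first of the 10 genes in that order.

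FOSL1 (ENSG00000175592, chr11:65659520-65668044, minus strand, 4 exons) encodes FRA1, a FOS protein without a strong activation domain that is known for its abundance in basal-like breast cancer cells. Its CPM was 377, 389.5 and 377 in si-N6AMT1 and 339, 329 and 330.3 in si-CN libraries. The groups did not overlap, at 381 ± 7.26 CPM against 333 ± 5.50 CPM (SD, n = 3 each). The log2 fold change was 0.19 (SE 0.0227, FDR = 1.04e-06 by edgeR), smaller than that of FOS, with 95% intervals of 0.15 to 0.24 for FOSL1 and 0.32 to 0.43 for FOS.

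FOSL2 (ENSG00000075426, chr2:28615315-28640184, plus strand, 4 exons) encodes FRA2. Its CPM was 374, 359.8 and 347 in si-N6AMT1 and 354, 354 and 358 in si-CN libraries, so that the highest and the lowest of the 6 values were both in si-N6AMT1. The log2 fold change was 0.02 (95% interval -0.03 to 0.07, FDR = 0.685 by edgeR), which leaves room for a change of up to 1.05-fold. Without si-N6AMT1 replicate 1, its highest library, the value was -0.0086 (FDR = 0.863 by edgeR).

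Of the JUN family, 1 of 3 genes was called. JUN (ENSG00000177606, chr1:59242517-59249720, minus strand, 1 exon), the main partner of FOS, had 346, 341 and 329 CPM in si-N6AMT1 and 315, 331 and 334 CPM in si-CN libraries. These values overlapped, and the log2 fold change of 0.05 was not called (95% interval -0.00093 to 0.10, FDR = 0.166 by edgeR). JUNB (ENSG00000171223, chr19:12902300-12904129, plus strand, 1 exon), which often restrains JUN at shared targets, had 247, 233 and 246 CPM against 225, 237 and 234 CPM. Its libraries overlapped through si-N6AMT1 replicate 2, and the log2 fold change was 0.06 (95% interval 0.0045 to 0.11, FDR = 0.123 by edgeR). Without that replicate the log2 fold change of JUNB was 0.09 and passed the threshold (FDR = 0.0371 by edgeR), whereas with GC-corrected offsets it was 0.00094 (FDR = 0.986 by edgeR). The JUNB gene is overlapped on the other strand by HOOK2, a gene with 604 to 769 counts per library where JUNB had 4426 to 5050. HOOK2 itself was higher in si-N6AMT1 (log2 fold change 0.18, SE 0.0501, FDR = 0.0119 by edgeR). The libraries were made with a stranded kit, but the strand option of the counting step is not given in the sources used here. The overlap is one of gene spans and exons were not compared, so whether reads of this pair were mixed cannot be told here.

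JUND (ENSG00000130522, chr19:18390504-18392432, minus strand, 1 exon), the JUN protein that is usually present in resting cells, was the only JUN gene called. Its CPM was 59.1, 63.6 and 63.5 in si-N6AMT1 and 52.4, 53.6 and 59.0 in si-CN libraries, so the groups were separated by the narrow step between si-CN replicate 3 and si-N6AMT1 replicate 1. Means were 62.1 ± 2.56 CPM and 54.99 ± 3.52 CPM (SD, n = 3 each), a log2 fold change of 0.17 (SE 0.0433, FDR = 0.00532 by edgeR). This call was lost after correction for GC content, at a log2 fold change of 0.10 (FDR = 0.122 by edgeR). The JUND transcript has 69.9% GC, the highest of the 10 genes.

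ATF3 (ENSG00000162772, chr1:212738676-212794119, plus strand, 4 exons) encodes a stress-induced partner of JUN proteins that represses transcription as a dimer with itself. Its CPM was 65.3, 63.5 and 63.4 in si-N6AMT1 and 60.4, 59.0 and 53.7 in si-CN libraries. All si-N6AMT1 libraries were above all si-CN libraries, with means of 64.1 ± 1.05 CPM and 57.7 ± 3.51 CPM (SD, n = 3 each). The log2 fold change was 0.15 (SE 0.0402, FDR = 0.00811 by edgeR). DESeq2 gave the same size without a call (log2 fold change 0.15, FDR = 0.0703). The call rested on si-CN replicate 3, its lowest library, without which the log2 fold change was 0.10 (FDR = 0.0856 by edgeR).

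EGR1 (ENSG00000120738, chr5:137801168-137804992, plus strand, 2 exons), whose promoter with CArG boxes is printed above, encodes a zinc finger factor of the serum response. It had 166, 163 and 168 CPM in si-N6AMT1 and 137, 136 and 139 CPM in si-CN libraries. Spread within groups was small, with means of 166 ± 2.40 CPM and 137 ± 1.26 CPM (SD, n = 3 each), and the log2 fold change was 0.27 (SE 0.0251, FDR = 2.83e-08 by edgeR). Its relatives were close to the limit of detection. In si-CN, EGR2, EGR3 and EGR4 had 0.473, 1.30 and 0.508 CPM, and none of the 3 was called.

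MYC (ENSG00000136997, chr8:128747680-128755197, plus strand, 3 exons) encodes a factor that pairs with MAX and drives ribosome production and growth. It had 278, 279 and 274 CPM in si-N6AMT1 and 222, 226 and 221 CPM in si-CN libraries, with a wide gap between the groups. Means were 277 ± 2.84 CPM and 223 ± 2.70 CPM (SD, n = 3 each), a log2 fold change of 0.31 (SE 0.0226, FDR = 6.9e-10 by edgeR). Of the 10 genes, MYC moved least between analyses, with log2 fold changes of 0.31 to 0.32 over 13 alternatives.

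DUSP1 (ENSG00000120129, chr5:172195099-172198198, minus strand, 4 exons) had 113, 111 and 115 CPM in si-N6AMT1 and 86.5, 85.4 and 88.9 CPM in si-CN libraries. Every si-N6AMT1 library was above 110 CPM and every si-CN library below 90 CPM. Means were 113 ± 1.93 CPM and 86.9 ± 1.76 CPM (SD, n = 3 each), a log2 fold change of 0.38 (SE 0.0291, FDR = 2.02e-09 by edgeR), the same size as for FOS. Genes overlapping FOSL2, ATF3, MYC and DUSP1 had at most 21 counts per library, against at least 1140 counts for each of these 4 genes.

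**Figure D2:**
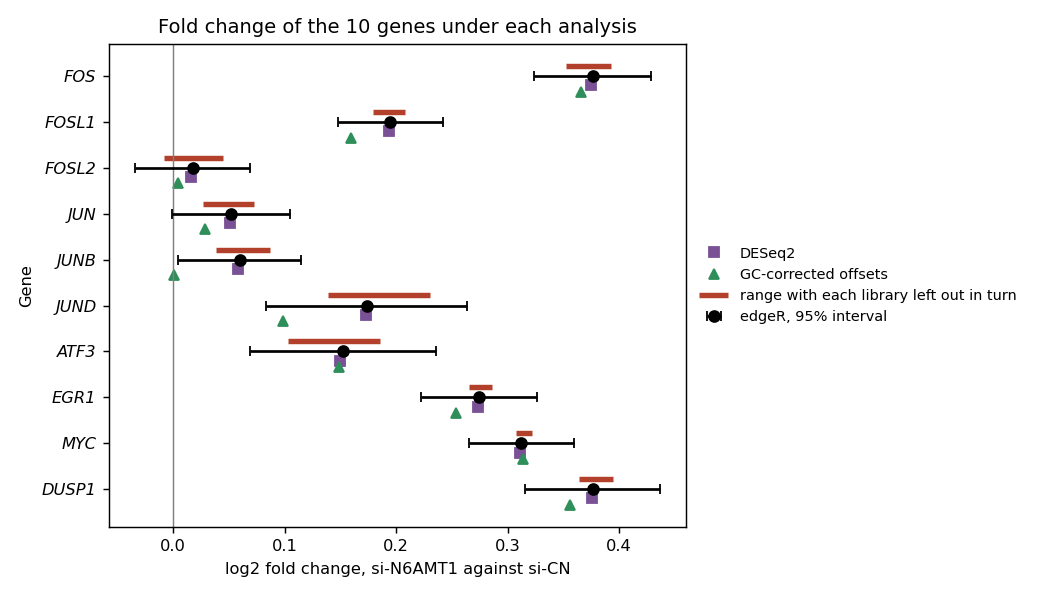
Log2 fold change of each gene between si-N6AMT1 and si-CN, with the edgeR estimate and its 95% interval in black, DESeq2 and GC-corrected edgeR as coloured points, and the range with each library left out in turn as a red line. All estimates of FOS, FOSL1, EGR1, MYC and DUSP1 lie above 0.15, whereas JUND moves down to 0.10 with GC correction and FOSL2 crosses 0.

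To compare levels between genes, counts were divided by the length of a reference transcript and scaled to estimated TPM, a unit that corrects for length. FOSL1 was the highest of the 10 genes in si-CN, at 435 ± 2.14 TPM (SD, n = 3), and ranked 289 among 20019 protein-coding genes. JUNB followed with 282 ± 10.6 TPM, JUN with 223 ± 9.49 TPM and FOS with 182 ± 7.40 TPM (SD, n = 3 each). MYC had 133 ± 2.67 TPM and FOSL2 118 ± 2.02 TPM (SD, n = 3 each). EGR1 at 97.3 ± 1.56 TPM and DUSP1 at 96.1 ± 2.52 TPM were not separable by their si-CN libraries, and neither were ATF3 at 66.1 ± 3.52 TPM and JUND at 63.4 ± 4.62 TPM (SD, n = 3 each). Each of the other neighbours in this order was separated in all si-CN libraries. In si-N6AMT1 the order differed, with FOS at 236 ± 1.20 TPM and JUN at 231 ± 7.33 TPM, whose libraries overlapped (SD, n = 3 each). With the longest annotated transcript as the length, each of the 10 values rose, FOSL1 to 552 TPM, and JUND came before ATF3.

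The makeup of the FOS family is described next, with FOSB added as its remaining member. FOSL1 took most of the summed family TPM, 55.7% ± 0.924 in si-CN and 53.9% ± 0.469 in si-N6AMT1 (SD, n = 3 each). FOS took 23.3% ± 0.668 in si-CN and 25.6% ± 0.241 in si-N6AMT1, and FOSB took 5.90% ± 0.216 and 7.58% ± 0.0890 (SD, n = 3 each). The share of FOSL2 was 15.1% ± 0.0664 in si-CN and 12.9% ± 0.449 in si-N6AMT1 (SD, n = 3 each). The family sum was 781 ± 10.0 TPM in si-CN and 922 ± 11.5 TPM in si-N6AMT1 (SD, n = 3 each). In the JUN family, JUNB took 49.6% ± 0.536 in si-CN and 49.3% ± 1.08 in si-N6AMT1, JUN 39.2% ± 0.0581 and 38.7% ± 0.986, and JUND 11.1% ± 0.513 and 12.0% ± 0.626 (SD, n = 3 each). These shares are descriptions and were not tested.

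Genes of the same pathway were then read from 7 further lists of 134 tested genes in all, of which 26 were called higher and 29 lower. Of all genes tested, 9.78% were called higher and 11.5% lower, and the share of each list is given to be read beside these. The lists were written from general knowledge, but with earlier results of these data known, so their shares are no independent evidence. Of the AP-1 and leucine zipper partners, 10 were tested, and 2 listed genes, BATF among them, did not pass the filter. Among the 10 tested, 1 was called higher (10.0%) and 3 lower (30.0%), with a median log2 fold change of -0.0022. The gene called higher was FOSB, the FOS paralog most tightly tied to acute stimuli. Its CPM was 119, 119 and 118 in si-N6AMT1 and 75.5, 77.7 and 81.5 in si-CN, a larger rise than that of any of the 10 genes (log2 fold change 0.60, SE 0.0307, FDR = 2.39e-12 by edgeR). MAF and MAFK, which encode large and small Maf proteins, fell by 0.28 and 0.17 on the log2 scale, and the small Maf gene MAFF was also lower.

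Of 25 other immediate early genes, 6 were higher, 5 were lower and 14 were not called, with a median log2 fold change of 0.06. NR4A1, an orphan nuclear receptor of the early response, had 53.8, 53.9 and 51.6 CPM in si-N6AMT1 and 32.1, 32.3 and 32.3 CPM in si-CN libraries. This was a 1.65-fold rise (log2 fold change 0.72, SE 0.0404, FDR = 1.09e-11 by edgeR). SGK1, a kinase of ion transport and survival, followed with a log2 fold change of 0.39, and IER5, CCN1, KLF2 and TRIB1 were also higher. In the other direction, CSRNP1 fell by 0.37 and PPP1R15A, a phosphatase subunit of the stress response also known as GADD34, fell by 0.18 on the log2 scale. IER3, GADD45B and PIM1 were lower as well. ZFP36, KLF4, KLF10, IER2 and MCL1, which are expressed at 83.0 to 1048 CPM in si-CN, were not called.

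Kinases and factors that act upstream of these promoters were read next. Of 23 tested genes of the MAP kinase cascade and of serum response factor with its ELK partners, 0 were higher and 8 lower (34.8%). The median log2 fold change of the 23 was -0.07. At an unadjusted p under 0.05, 4 were higher (ELK3, MAPK14 and EGFR among them), and DESeq2 called 0, limma-voom 1 (EGFR) and edgeR with GC-corrected offsets 1 (ELK3). ELK4, which recruits MAP kinase signals to CArG boxes, fell by 0.17 on the log2 scale (SE 0.0285, FDR = 0.000118 by edgeR). MAP2K1, MAPK8, MAPK9, ELK1 and MRTFB were also among those called lower. DESeq2 called 4 of the 23 lower, and edgeR with GC-corrected offsets 11. RNA levels give no reading of kinase activity.

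Among 16 other MAP kinase phosphatases and feedback inhibitors, 5 were higher (31.25%) and 3 lower (18.75%), with a median log2 fold change of 0.05. DUSP5, a nuclear phosphatase of ERK, had 103 ± 3.41 CPM in si-N6AMT1 and 82.3 ± 0.177 CPM in si-CN (SD, n = 3 each), a log2 fold change of 0.33 (SE 0.0308, FDR = 3.81e-08 by edgeR). DUSP7 was higher by 0.19, and DUSP2, DUSP4 and SPRY2 were also called. ERRFI1, an inhibitor of EGFR that is itself induced by growth factors, fell by 0.10 and DUSP16 by 0.16 on the log2 scale, and SPRED1 was lower too. DESeq2 called only 2 of the 16 higher and 1 lower, and without si-N6AMT1 replicate 2 the number higher was 3.

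The rise of MYC RNA was set beside its network and its targets. Of 14 tested partners and antagonists (MYCN did not pass the filter), 1 was higher (7.14%) and 3 were lower (21.4%). The median log2 fold change of the 14 was 0.02. MAX, the obligate partner, was not called (log2 fold change 0.07, FDR = 0.0945 by edgeR). MNT, a repressor that competes for MAX, was higher by 0.28, and MXD1, another such repressor, fell by 0.11 on the log2 scale. MYCBP2 and FBXW7, a ubiquitin ligase subunit that marks MYC protein for degradation, were also lower. Of 25 known MYC targets, 4 were higher and 4 lower, with a median log2 fold change of 0.04. The nucleolar gene FBL and the polyamine gene SRM were higher by 0.10 and 0.16 and AIMP2 and PHB1 were also called, whereas TFAM and TFRC, for mitochondrial DNA upkeep and iron uptake, fell by 0.49 and 0.43 on the log2 scale, and CCND2 and CDK4 were lower too. The number higher among MYC targets was not stable. It was 2 by DESeq2 and without si-CN replicate 2, and 8 with GC correction and without si-CN replicate 1.

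Known targets of AP-1 were read last. Of 21 tested (MMP3, MMP9 and SPP1 did not pass the filter), 9 were higher (42.9%, beside 9.78% of all genes tested) and 3 lower (14.3%, beside 11.5%), with a median log2 fold change of 0.04. The collagenase gene MMP13 had 217 ± 3.37 CPM in si-N6AMT1 and 168 ± 2.35 CPM in si-CN (SD, n = 3 each), a log2 fold change of 0.37 (SE 0.0242, FDR = 1.06e-10 by edgeR). AREG, an EGFR ligand, had 73.1 ± 3.40 CPM and 50.2 ± 1.01 CPM (SD, n = 3 each), a log2 fold change of 0.54 (SE 0.0384, FDR = 4.73e-10 by edgeR). The others called higher were MMP1, MMP10, TIMP1, CD44, CXCL8, HBEGF and IL6. Another pair of well-known AP-1 targets went the other way. PLAU, which encodes urokinase, fell by 0.85 on the log2 scale, and CCND1, which encodes cyclin D1, fell by 0.57, from 193 ± 3.22 CPM in si-CN to 130.2 ± 1.56 CPM in si-N6AMT1 (SD, n = 3 each). LIF was lower as well. The number called higher was 9 or 10 in every alternative, and with GC correction 5 were called lower.

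FOS, which had the lowest FDR of the 10 genes, was compared with all 17319 other tested genes by Pearson's r of log2 CPM over the 6 libraries. The most similar genes were PI3, DIO2 and MRPS25 (r = 0.998 each), which had log2 fold changes of 1.03, 0.65 and 0.26. MYC ranked 34 in this order (r = 0.991), DUSP1 ranked 64 (r = 0.988), EGR1 ranked 79 (r = 0.986) and FOSL1 ranked 476 (r = 0.956). FOSL2 was far down, at rank 6852 (r = 0.267). Because the 6 libraries fall into the 2 groups compared, such values mostly restate the difference between groups.

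The 3′ UTRs of the 10 genes were read because many early-response mRNAs carry AU-rich elements that shorten their life. The core ATTTA was found in all 10, beside 72.5% of 13302 tested genes with a 3′ UTR. It occurred 9 times in the 4869 bases of FOSL2, 6 times in the 1993 bases of MYC, 5 times in the 806 bases of FOS and 4 times in the 666 bases of DUSP1. The longer element TTATTTATT was found in 3 of the 10 (30.0%) and in 9.68% of genes. These sites are shown on the strand of the gene, in GRCh37, with the element in capitals, at chr14:75748764-75748790 for FOS, chr2:28639223-28639249 for FOSL2, and chr5:172195647-172195673 and chr5:172195379-172195405 for the upstream and the downstream site of DUSP1.
FOS: gtttttaatTTATTTATTaagatggat
FOSL2: tttattttaTTATTTATTttaaatgtt
DUSP1, upstream: ggctggtccTTATTTATTtaacttcac
DUSP1, downstream: gaatataccTTATTTATTtttgtgtag
FOS and DUSP1 were called higher and FOSL2 was not. Over all tested genes with a 3′ UTR, ATTTA was found in 65.2% of those called higher and 87.9% of those called lower. For TTATTTATT these shares were 6.94% and 13.0%. The letters TTCACAT and TCACATA were picked on fold changes of these same libraries, so their shares among called genes are no independent evidence. One or the other was found in 22.2% of genes, in 11.7% of genes called higher and in 44.05% of genes called lower. Of the 10 genes, 1 held them, DUSP1, 23 bases after its stop codon at chr5:172195726-172195752, shown with the letters in capitals.
DUSP1: ggtgaggctcTTCACATcccattggga
DUSP1 was called higher, at the same log2 fold change as FOS. Genes called higher had shorter 3′ UTRs, with a median of 968 bases against 2093 bases for genes called lower and 1321 bases for all, and the part of UTR length in these shares was not tested.

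Fold changes moved with the GC content of transcripts over all genes. The median log2 fold change rose from -0.03 in transcripts under 40% GC to 0.07 in those above 65% GC, the share called lower fell from 19.1% to 2.33%, and the share called higher was 6.67% in the former, 15.5% at 60 to 65% GC and 13.1% in the latter. The 10 genes had 48.8% (MYC) to 69.9% GC (JUND). MYC lay in the bin of 45 to 50% GC, with a median of -0.0044, and FOS, FOSL2 and ATF3 lay in that of 50 to 55%, with a median of 0.01. FOSL1, JUN, EGR1 and DUSP1 lay in the bin of 55 to 60%, with a median of 0.03, and JUNB and JUND lay in the 2 bins above it, with medians of 0.05 and 0.07. With GC-corrected offsets, 6 of the 10 genes were called higher, FOS, FOSL1, ATF3, EGR1, MYC and DUSP1. Summed CPM of the markers expected in MDA-MB-453 ran from 1567 to 1588 in si-N6AMT1 and from 1511 to 1552 in si-CN libraries, with 3 of 8 tested genes higher (KRT8, KRT18 and CDH1) and 1 lower (EPCAM). Summed CPM of markers of other cell types ran from 1880 to 1900 and from 1792 to 1829, with 4 of 8 tested genes higher (KRT5, KRT14, TP63 and ZEB1) and 0 lower, while ESR1 had 4 to 15 counts per library, PGR 0 to 2 and PTPRC 1 to 3. The part of these shifts in the values of the 10 genes was not tested.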

How the data were processed

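RNA-seq libraries of cells labelled MDA-MB-453 were analysed, of which 3 were labelled si-N6AMT1 and 3 control. The libraries were made with a stranded mRNA kit. Per the study's methods, the authors trimmed reads with Trim Galore, obtained transcript counts from kallisto v0.46.0 with the GENCODE annotation of hg19, and added up the transcripts of a gene. The table that the authors deposited thus holds estimated counts (expected counts), not normalized, for 62438 genes, which the study itself tested with DESeq2. These counts were rounded to whole numbers here before use. Because kallisto divides reads among similar transcripts, counts of overlapping genes and pseudogenes are uncertain.

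Differential expression was computed here in R v4.3.3 with edgeR v4.0.16. The expression filter used a minimum count of 10, libraries were scaled by TMM, and the quasi-likelihood model took the group of each of the 6 libraries as its only term, at a threshold of 0.05 for FDR. Totals were 19739247 to 21289740 counts per library, and the biological coefficient of variation was 1.85%. Library pairs within groups differed by more than sampling noise (chi-square per degree of freedom 1.37 to 1.77). Each library entered the fit as a replicate, although this excess does not show whether the libraries came from separate cultures. Intervals are 95% intervals of the fit. Symbols were matched for 62149 genes in GENCODE on GRCh37, and GC content for 17239 of the tested genes. TPM was estimated from reference transcript lengths. Sequences were searched in Python v3.11.15.

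Alternatives were RLE size factors, DESeq2 v1.42.0, limma-voom (limma v3.58.1), no expression filter, the replicate number as a block, GC-corrected offsets, both together, and each library left out in turn. The 10 genes and the further lists were chosen with earlier results of these data known. Genes named beside the 10 were, by rule, the targeted gene, the 2 called genes with the smallest FDR in each direction of each list, the 3 genes most similar to FOS and the markers. Other list members are named where a short count or a group is spelled out, after their values had been seen, and the searches for ATTTA, TTATTTATT and TATAAA were added after the data had been seen. Protein sequences and DNA methylation data were not used here. A few genes of the lists are counted but not reported by name here.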

Additional observations from a re-analysis of the deposited data

How the results depend on the processing

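Expression of FOS, FOSL1, EGR1, MYC and DUSP1 passed the threshold in the same direction under all 13 alternatives. Counts of the 10 genes called higher ran from 6 to 8 and of those called lower from 0 to 0 with each library left out in turn, N6AMT1 from -1.18 to -1.04 on the log2 scale, all genes called from 2835 to 3341, and further list genes from 22 to 28 higher and 26 to 29 lower. DESeq2 called 1932 genes where edgeR called 3687. FOSL2 ran from -0.0086 (without si-N6AMT1 replicate 1, where it turned) to 0.044 on the log2 scale. ATF3 was not called by DESeq2 or without si-CN replicate 3, JUND was not called with GC-corrected offsets (with the block, FDR = 0.0986 by edgeR), and JUNB was called without si-N6AMT1 replicate 2. DUSP16 was not called by DESeq2 (FDR = 0.0623), nor were MXD1, SRM and FBL by edgeR with the block and GC correction together (FDR = 0.0524, 0.0651 and 0.093). The cause was not tested for any of these.

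Replicate numbers did not pair the libraries. The same-numbered libraries had correlations of their deviations from group means between -0.117 and 0.00894, and 1 of 6 libraries correlated best with its own number. With the replicate block, 3326 genes were called in place of 3687, with 7 of the 10 genes still higher.

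Depth limits the low genes. N6AMT1, with 60 to 141 counts per library, had a standard error of 0.119, against 0.0226 to 0.0433 for the 10 genes, and EGR2, at 0.473 CPM in si-CN, was not called at a log2 fold change of 0.49 (FDR = 0.409 by edgeR).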
